A study of Mus musculus with 6 samples.

Results

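The genes described here are 10 ligands, receptors and an adaptor of the tumor necrosis factor (TNF) superfamily in mouse peritoneal macrophages. They are the ligands Tnf, Tnfsf9, Tnfsf10, Tnfsf12 and Tnfsf13b, the receptors Tnfrsf1a, Tnfrsf1b, Cd40 and Fas, and the adaptor Traf1. All rows of the expression table whose gene name is one of these were taken, which gave 10 of the 54532 genes in the table. RNA-seq was performed on poly-A RNA of wild-type peritoneal macrophages in 3 groups with 2 libraries each. The methods describe cells drawn out into the peritoneum of male C57BL/6J mice, 6 to 8 weeks old, with thioglycolate. Control cells are labelled as having had no treatment. Model cells received LPS, a bacterial cell wall component, at 500 ng/mL for 5.5 h and then ATP at 2 mM for 0.5 h. MUS cells were given LPS and ATP in the same way, and muscone, a macrocyclic ketone from musk, was added at 50 uM 5 h after the LPS. Replicate 1 of each group is batch 1 and replicate 2 is batch 2 by the sample labels. Values are in FPKM, fragments on a gene scaled to its length and to the size of the library, and the libraries held between 15526321 and 17135442 fragments on genes. No source used here says that the 2 libraries of a group came from separate animals or cultures, so the p-values measure only the spread between these libraries.

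TNF superfamily ligands are made mostly as trimers in the cell membrane, and some of them, such as TNF, are also cut free. Their receptors either carry a death domain, as TNFR1 and FAS do, or bind TRAF adaptors, as TNFR2 and CD40 do, and many of them lead to NF-κB activation. Macrophages exposed to LPS are a well-known source of TNF, and several members are themselves NF-κB targets.

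The stretches just before the transcription start are shown for 4 members, because they are where the letters of promoter motifs can be seen beside the levels described next. The sequences are from RefSeq on GRCm38.p6, read 5′ to 3′ on the strand of the gene, 250 bases ending at the base before the start, and 7 of the 10 members were matched. Not matched were Cd40, Tnfsf9 and Tnfsf12. Capitals mark matches to the motifs searched.
Tnf, chr17:35202008-35202257, minus strand: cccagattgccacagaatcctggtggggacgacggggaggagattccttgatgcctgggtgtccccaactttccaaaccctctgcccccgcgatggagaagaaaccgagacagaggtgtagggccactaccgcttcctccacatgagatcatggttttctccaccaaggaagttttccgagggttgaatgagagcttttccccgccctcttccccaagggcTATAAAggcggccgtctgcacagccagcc
Fas, chr19:34290409-34290658, plus strand: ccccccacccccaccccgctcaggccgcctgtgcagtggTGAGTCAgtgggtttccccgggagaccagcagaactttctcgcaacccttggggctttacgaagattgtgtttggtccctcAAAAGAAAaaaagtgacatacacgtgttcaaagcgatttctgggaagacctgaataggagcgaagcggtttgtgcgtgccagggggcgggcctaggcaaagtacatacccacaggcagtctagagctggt
Tnfsf10, chr3:27316827-27317076, plus strand: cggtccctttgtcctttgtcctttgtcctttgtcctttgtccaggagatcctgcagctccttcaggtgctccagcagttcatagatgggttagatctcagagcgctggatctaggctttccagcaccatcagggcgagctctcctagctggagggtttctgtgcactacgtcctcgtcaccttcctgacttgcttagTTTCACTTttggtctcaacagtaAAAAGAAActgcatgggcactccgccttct
Tnfrsf1b, chr4:145246871-145247120, minus strand: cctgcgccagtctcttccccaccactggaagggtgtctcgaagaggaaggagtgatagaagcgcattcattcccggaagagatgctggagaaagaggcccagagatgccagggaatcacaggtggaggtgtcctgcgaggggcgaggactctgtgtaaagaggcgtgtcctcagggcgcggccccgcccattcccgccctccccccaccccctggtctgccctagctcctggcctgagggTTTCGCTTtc
The Tnf stretch holds the TATA box letters TATAAA, searched on the strand of the gene, 29 to 24 bases before the start, and 7.59% of the 32851 promoters in the table hold them. The AP-1 letters TGANTCA, searched on both strands, occur in the Fas stretch 211 to 205 bases before the start, in 1 of the 2 Tnfsf13b promoters and in 6.75% of all promoters. An interferon regulatory factor core, AANNGAAA on either strand, occurs in the Fas, Tnfsf10 and Tnfrsf1b stretches, in the same Tnfsf13b promoter, and in 21.3% of all promoters. In Tnfsf10 it lies 53 to 46 and 30 to 23 bases before the start, in Fas 130 to 123 and in Tnfrsf1b 10 to 3. The start used is that of RefSeq. The Tnfsf10 gene whose levels are described begins earlier, at chr3:27317028, so the end of its stretch lies inside the gene. The Tnfrsf1a stretch and part of the Tnfsf13b promoter with matches also lie inside the genes whose levels are described. A κB site, searched by its usual degenerate pattern on both strands, was found in 0 of the 8 member promoters, of which 2 belong to Tnfsf13b, and in 7.25% of all, which says only that these letters are not in these windows. The Traf1 and Tnfrsf1a stretches held no match to the motifs searched.

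Before the results, the libraries were compared. Control replicate 2 stood apart from Control replicate 1 in the inflammatory genes, and no value here can show whether its label of no treatment is right. Among the 9 members whose FPKM averaged at least 1 across the libraries, 7 were higher in Control replicate 2, with a median log2 difference of 1.93 against 0.04 for the 9794 genes tested. A list of 18 TNF and NF-κB response genes was higher in Control replicate 2 for 18 of 18, with a median difference of 2.24. Only 5.93% of the genes tested differed by more than 1 in that direction. On the log2 scale, Control replicate 2 lay 60.6% of the way from Control replicate 1 to the Model mean for Tnf, 72.2% for Fas and 18.0% for Tnfsf10. Model vs. Control changes of the members tested are therefore given with both Control libraries and without each of them. Model replicate 1 also stood apart, with a fragment on 24906 genes against 17406 to 19200 in the other libraries and an FPKM sum of 391736 against 301384 in Model replicate 2. Across the 9794 genes its log2 values correlated with those of Model replicate 2 and the MUS libraries with r between 0.928 and 0.944, while these 3 correlated among themselves with r between 0.958 and 0.981. MUS vs. Model is therefore also given without it.

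The macrophage label was checked against its markers. All 10 macrophage markers averaged at least 1 FPKM, and their summed level was between 9899 and 14626 FPKM in the 6 libraries, most of it Lyz2, the lysozyme of myeloid cells. Single markers went opposite ways in Model vs. Control, with Csf1r, the receptor of the growth factor M-CSF, called lower (-1.37) and Fcgr1 (3.57), Cd14 (2.64) and Msr1 (2.08) called higher (limma), of which Fcgr1 and Csf1r were also called without Control replicate 1. The summed FPKM of 10 T and NK cell markers was 0.746 and 0.335 for the Control libraries, 3.73 and 1.54 for Model, and 2.82 and 2.22 for MUS, and that of 7 B cell markers was between 1.02 and 1.92. Most of the first sum in Model and MUS was Lck, a lymphocyte kinase, which was at 0.0448 and 0.134 FPKM in the Control libraries and between 1.37 and 2.85 FPKM in the 4 others and passed the filter only through these, while the other T and NK cell markers together reached at most 0.874 FPKM. Neutrophil markers summed to 13.8 and 30.9 FPKM in Control, 112 and 57.7 FPKM in Model, and 64.6 and 50.8 FPKM in MUS. Nearly all of this sum was S100a8, and the other neutrophil markers together reached at most 1.66 FPKM, with S100a9, Ly6g and Retnlg listed at 0 in all 6 libraries. Eosinophil and mast cell markers summed to between 1.87 and 4.74 FPKM with Prg2 and Epx listed at 0, dendritic cell markers to between 1.15 and 2.44, and mesothelial and fibroblast markers to between 17.7 and 33.1 with Col1a1 the most abundant. Dcn, a matrix proteoglycan of that last list, was called higher by 1.18 and 1.19 in Model and MUS against Control (limma adjusted p = 0.0161 and 0.0121). Both Dcn changes were just under the threshold of 1 without Control replicate 1. S100a8 was called higher in Model vs. Control with 1.90 (limma adjusted p = 0.0365) and not in MUS vs. Control, with 1.43 (limma adjusted p = 0.0679). The part of such cells in the results was not tested. A value near 0 was read only as a listed value, since Gapdh, a glycolytic enzyme of every cell, was listed at 0.257 to 1.39 FPKM while Actb, cytoskeletal actin, had 866 to 3880 FPKM. In bulk RNA, fewer cells of a type and less RNA per cell cannot be told apart.

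**Figure D1:**
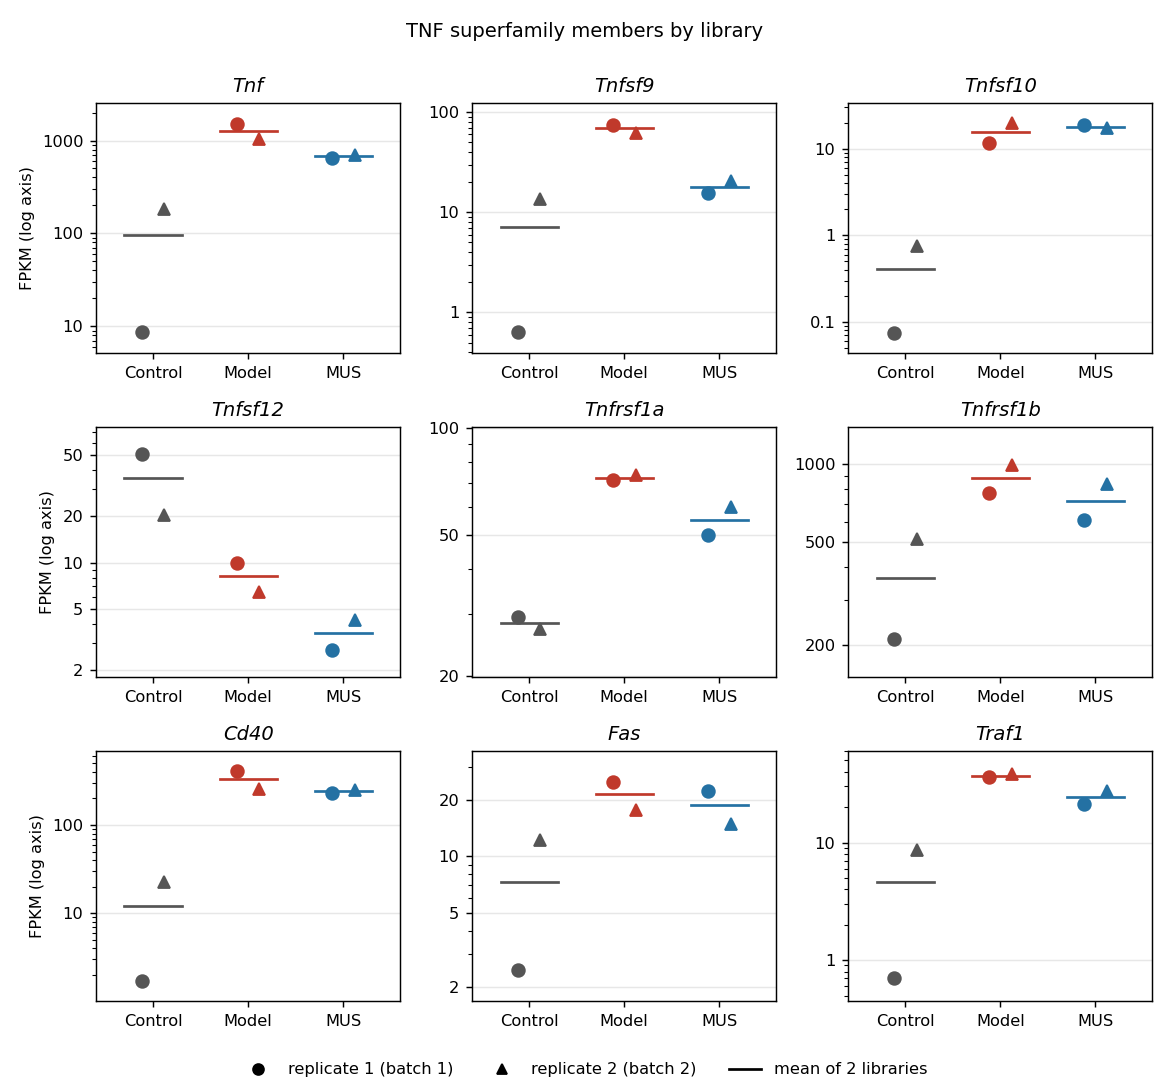
FPKM (log axis) of the 9 members averaging at least 1 FPKM, by group. Points are single libraries (circles replicate 1, triangles replicate 2) and lines are means of 2 libraries. For Tnf the Model libraries lie at 1510.5 and 1034 FPKM and the Control libraries at 8.62 and 183, and Tnfsf12 runs the other way, from 50.6 and 20.3 in Control to 2.71 and 4.27 in MUS.

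Tnf (ENSMUSG00000024401, GRCm38 chr17:35199381-35202007, minus strand) encodes the cytokine that gives the family its name. Its level was 8.62 and 183 FPKM in Control, 1510.5 and 1034 FPKM in Model, and 654 and 701 FPKM in MUS. The 3 groups did not overlap, with MUS between Control and Model, and the Control libraries differed from each other by 21.2-fold. Tnf rose in Model vs. Control by a log2 fold change of 4.89 (standard error 1.19, limma adjusted p = 0.0330), and its group mean was 13.3-fold higher. Without Control replicate 2 the log2 fold change was 7.02, and without Control replicate 1 it was 2.77 (limma adjusted p = 0.000283 and 0.0139). In MUS vs. Control the change was 4.01 (limma adjusted p = 0.0486). In MUS vs. Model the ratio of means was 0.532, with within-batch log2 differences of -1.21 and -0.56. That difference did not pass the test, with a log2 fold change of -0.88, a 95% interval from -3.69 to 1.92 and a limma adjusted p of 0.894.

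Tnfsf9 (ENSMUSG00000035678, chr17:57105325-57107757, plus strand) encodes 4-1BBL, the ligand of the T cell receptor 4-1BB. It had 0.644 and 13.7 FPKM in Control, 75.3 and 62.8 FPKM in Model, and 15.6 and 20.6 FPKM in MUS. In FPKM, the MUS libraries lay well under both Model libraries and just over Control replicate 2, which was again 21.2-fold above Control replicate 1. In fragments not scaled to library size, Control replicate 2 had 404 and the MUS libraries 305 and 432, so the order of these depends on the scaling. Tnfsf9 rose in Model vs. Control by a log2 fold change of 3.83 (standard error 0.88, limma adjusted p = 0.0285), by 5.41 without Control replicate 2 and by 2.25 without Control replicate 1. The MUS mean was 0.263 times the Model mean, and the log2 difference was -2.20 within batch 1 and -1.56 within batch 2. In the fit of all 6 libraries, MUS vs. Model gave a log2 fold change of -1.88 with a 95% interval from -3.96 to 0.20 (limma adjusted p = 0.641). The smallest adjusted p of Tnfsf9 in that comparison over the 18 alternatives was 0.151. MUS vs. Control gave 1.95 (limma adjusted p = 0.146), with 3.53 without Control replicate 2 and only 0.37 without Control replicate 1.

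Tnfsf10 (ENSMUSG00000039304, chr3:27317028-27342427, plus strand) encodes TRAIL, a death-inducing ligand known to be induced by interferon. It was listed at 0.0747 and 0.747 FPKM in Control, which are 9 and 90 fragments, at 11.5 and 19.6 FPKM in Model and at 18.6 and 17.2 FPKM in MUS. Model and MUS overlapped, and both lay far above Control. Against Control, Model was higher by a log2 fold change of 3.55 (standard error 0.33, limma adjusted p = 0.00200), and MUS by 3.79 (limma adjusted p = 0.00135). The Model value was 3.90 without Control replicate 2 and 3.20 without Control replicate 1. Tnfsf10 passed the filter on a mean FPKM of at least 1 only through Model and MUS. It was called in both comparisons with Control under all 18 alternatives, and it was the only member for which this held. Against Model, MUS differed by 0.23 with a 95% interval from -0.55 to 1.02.

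Tnfsf12 (ENSMUSG00000097328, chr11:69686250-69695849, minus strand) encodes TWEAK, a ligand of the receptor FN14, and it was the only one of the 9 members tested that fell. Its values were 50.6 and 20.3 FPKM in Control, 9.87 and 6.48 FPKM in Model, and 2.71 and 4.27 FPKM in MUS. The groups did not overlap, with Control highest and MUS lowest. Compared with Control, it fell by 1.88 on the log2 scale in Model (standard error 0.44, limma adjusted p = 0.0306) and by 2.91 in MUS (limma adjusted p = 0.00634). Without Control replicate 1 the Model vs. Control change was -1.24 and no longer passed (limma adjusted p = 0.108), and without Control replicate 2 it was -2.52. MUS vs. Model gave -1.03 with a 95% interval from -2.08 to 0.02 (limma adjusted p = 0.606). The level of Tnfsf12 is uncertain, as 46.8% of its 50-base stretches also occur in Tnfsfm13, a read-through gene that overlaps it on the same strand, and the antisense gene Tnfsf13os overlaps it as well. Tnfsfm13 was listed at 0.0866 to 1.10 FPKM.

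Tnfsf13b (ENSMUSG00000031497, chr8:10006467-10039072, plus strand) encodes BAFF, a survival factor of B cells. It was low in every library, at 0.255 and 0.165 FPKM in Control, 0.0929 and 0.0752 FPKM in Model, and 0.337 and 0.278 FPKM in MUS. These values are 40, 26, 9, 8, 35 and 31 fragments in that order. The Model libraries were the lowest on both scales, whereas the MUS libraries were the highest in FPKM and Control replicate 1 in fragments. Its mean FPKM was under 1 and it was not tested. When all genes with a fragment were tested, limma gave it an adjusted p of 0.488 for Model vs. Control, 0.671 for MUS vs. Model and 0.756 for MUS vs. Control.

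Of the receptors, Tnfrsf1a (ENSMUSG00000030341, chr6:125349362-125362484, plus strand) encodes TNFR1, the death domain receptor of TNF. Its level was 29.4 and 27.2 FPKM in Control, 71.3 and 73.8 FPKM in Model, and 50.2 and 59.8 FPKM in MUS. Replicates lay close together, and Control replicate 2 was at 0.924 times Control replicate 1. Tnfrsf1a rose in Model vs. Control by 1.33 on the log2 scale (standard error 0.27, limma adjusted p = 0.0190), by 1.27 without Control replicate 2 and by 1.38 without Control replicate 1. This call depends on the scaling, since it was 0.79 and did not pass when libraries were scaled to their fragment totals, a setting that moves the median of all genes to -0.40. In MUS vs. Control the log2 fold change was 0.93, under the threshold of 1 (limma adjusted p = 0.0452). With single libraries left out it lay between 0.81 and 1.05. In MUS vs. Model it was -0.40 with a 95% interval from -1.03 to 0.23 (limma adjusted p = 0.749).

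Tnfrsf1b (ENSMUSG00000028599, chr4:145213463-145246870, minus strand) encodes TNFR2, the TNF receptor without a death domain, and was the most abundant receptor in every library. It had 212 and 513 FPKM in Control, 769.6 and 989.6 FPKM in Model, and 608 and 837 FPKM in MUS. In FPKM, both stimulated groups lay above both Control libraries, and Model and MUS overlapped. In fragments not scaled to library size, Control replicate 2 had 44854, more than Model replicate 1 with 41467 and MUS replicate 1 with 35095. How the groups lie to each other thus depends on the scaling. The Model vs. Control difference of 1.40 did not pass the test (standard error 0.50, limma adjusted p = 0.10), but it was 2.04 and passed without Control replicate 2 (limma adjusted p = 0.0160), and it was 0.76 without Control replicate 1. MUS vs. Control gave 1.11 (limma adjusted p = 0.146), with 1.75 without Control replicate 2 and 0.47 without Control replicate 1. The ratio of the Tnfrsf1b to the Tnfrsf1a level was 7.19 and 18.9 in Control and between 10.8 and 14.0 in the other 4 libraries. The ratio of the Tnf to the Tnfrsf1b level was 0.0407 and 0.356 for the Control libraries, 1.96 and 1.04 for Model, and 1.07 and 0.838 for MUS. Tnf was thus the member with the highest FPKM in both Model libraries and MUS replicate 1, and Tnfrsf1b in the other 3.

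Cd40 (ENSMUSG00000017652, chr2:165055627-165072948, plus strand) encodes the receptor through which T cell CD40 ligand stimulates macrophages. It was at 1.72 and 22.5 FPKM in Control, 406 and 255 FPKM in Model, and 232 and 248 FPKM in MUS. Stimulated and Control libraries were far apart, and both MUS libraries were just below the lower Model library. The log2 fold change of Cd40 was 5.33 for Model against Control (standard error 0.89, limma adjusted p = 0.0105) and 4.91 for MUS against Control (limma adjusted p = 0.0105). These were the largest of the members on the log2(FPKM + 1) scale with all 6 libraries, whereas the ratio of group means was larger for Tnfsf10, at 37.9 and 43.6 against 27.3 and 19.8 for Cd40. The Model value was 6.89 without Control replicate 2 and 3.78 without Control replicate 1. MUS vs. Model gave -0.42 (limma adjusted p = 0.940), with within-batch differences of -0.80 and -0.04.

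Fas (ENSMUSG00000024778, chr19:34290659-34327770, plus strand) encodes the death receptor for FAS ligand. Its values were 2.45 and 12.2 FPKM in Control, 25.1 and 17.7 FPKM in Model, and 22.4 and 14.9 FPKM in MUS. In FPKM, the stimulated libraries were above both Control libraries and overlapped each other. In fragments not scaled to library size, Control replicate 2 had 502, more than Model replicate 2 with 495 and MUS replicate 2 with 437. This separation thus depends on the scaling. The Model vs. Control log2 fold change of 1.71 did not pass (standard error 0.59, limma adjusted p = 0.0915). It was 2.68 and passed without Control replicate 2 (limma adjusted p = 0.00469), and it was 0.75 without Control replicate 1. MUS vs. Control gave 1.52 (limma adjusted p = 0.103), with 2.48 without Control replicate 2 and 0.55 without Control replicate 1. MUS vs. Model gave -0.19 with a 95% interval from -1.59 to 1.20.

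Traf1 (ENSMUSG00000026875, chr2:34941750-34961772, minus strand) encodes an adaptor that binds TNFR2, CD40 and other receptors together with TRAF2. It had 0.709 and 8.59 FPKM in Control, 36.2 and 38.0 FPKM in Model, and 21.5 and 27.7 FPKM in MUS. The 3 groups did not overlap, in the same order as for Tnf. Traf1 rose over Control by 3.23 in Model (standard error 0.71, limma adjusted p = 0.0244) and by 2.65 in MUS (limma adjusted p = 0.0357). The Model vs. Control change was 4.48 without Control replicate 2 and 1.99 without Control replicate 1, and passed in both. MUS vs. Model gave -0.59 (limma adjusted p = 0.880), with within-batch differences of -0.73 and -0.44.

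Ordered by their mean level, the members formed different series in the groups. In Control, Tnfrsf1b stood at 363 ± 213 FPKM (SD, n = 2) and Tnf at 95.7 ± 123, followed by Tnfsf12 and Tnfrsf1a at 35.5 ± 21.4 and 28.3 ± 1.58. The libraries of Tnf and Tnfsf12 overlapped, and so did those of Tnfsf12 and Tnfrsf1a. In Model, Tnf led with 1272 ± 337 FPKM, then Tnfrsf1b with 879.6 ± 156, Cd40 with 330.3 ± 106 and Tnfrsf1a with 72.5 ± 1.76, and of these 4 no neighbours overlapped. Tnfsf12 moved from the third place in Control to the ninth in Model, with only Tnfsf13b lower. In MUS, Tnfrsf1b at 722 ± 162 FPKM and Tnf at 677 ± 33.4 overlapped, and each of Traf1, Fas, Tnfsf9 and Tnfsf10 overlapped the next in that order, and these lay between 17.9 and 24.6 FPKM on average.

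Model vs. Control asks what LPS and ATP changed. Of the 9 members tested, 6 were called higher, namely Cd40, Tnf, Tnfsf9, Tnfsf10, Traf1 and Tnfrsf1a, and Tnfsf12 was called lower, where a call needs a limma adjusted p no larger than 0.05 together with a log2 fold change beyond 1 in either direction. Over all 9794 genes tested, 9.5% were called higher and 5.56% lower. The median log2 fold change was 3.23 for the members and 0.04 for all genes, and the members' median was 1.99 without Control replicate 1 and 3.90 without Control replicate 2. The balance of all genes depends on the scaling, with 930 higher and 545 lower as deposited, 646 and 1554 with fragment-total scaling, 584 and 1790 when mitochondrial genes and the 20 highest were left out of the scaling, and 707 and 715 with quantile normalization. In FPKM as deposited, both Model libraries were above both Control libraries for 8 members and below them for 1, which also held for 32.6% and 28.5% of all genes. Without Control replicate 2, 8 members were called higher and 1 lower, against 12.6% and 8.58% of all genes. Without Control replicate 1, 6 were called higher and 0 lower, against 5.45% and 2.34%. Only Tnfsf10 was called without Model replicate 1, Cd40, Tnfsf10 and Tnfrsf1a without Model replicate 2, and Cd40 and Tnfsf10 without either MUS library. The share of all genes called higher was then lower too, at 5.64% without Model replicate 1, 7.85% without Model replicate 2, and 5.57% and 5.54% without MUS replicate 1 and MUS replicate 2.

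**Figure D2:**
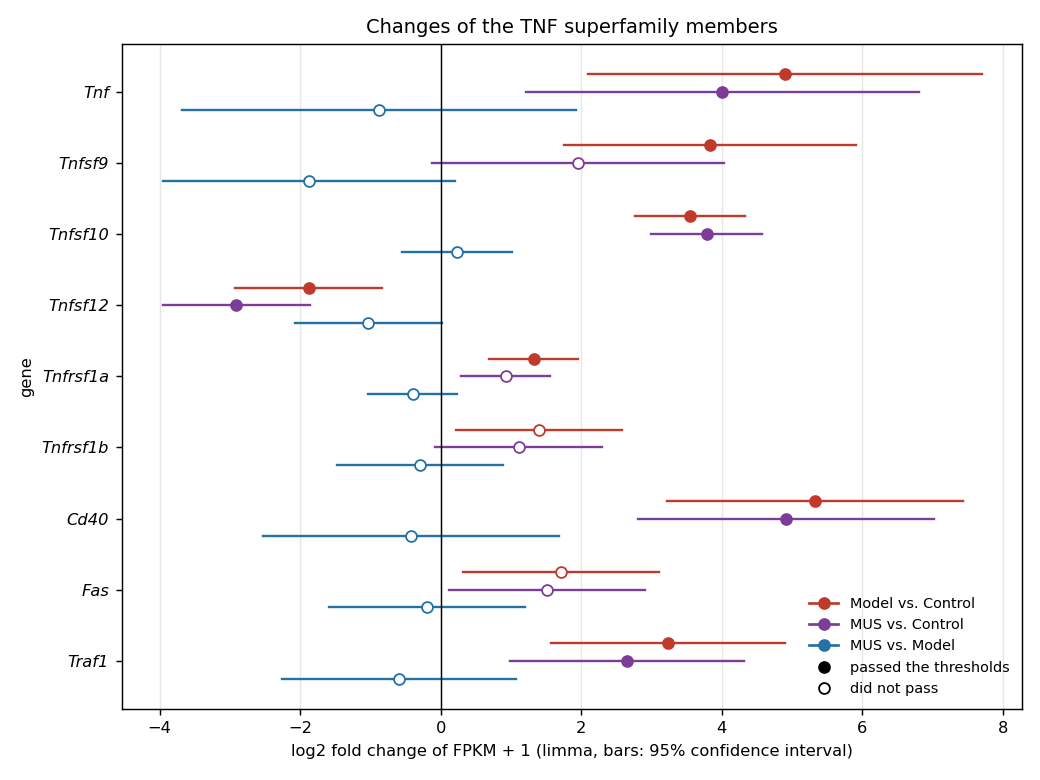
Log2 fold change of FPKM + 1 (x axis) of the 9 members tested in the 3 comparisons, from limma with all 6 libraries. Bars are 95% confidence intervals and filled points passed both thresholds. Model vs. Control and MUS vs. Control lie to the right of 0 for every member but Tnfsf12, while the intervals of MUS vs. Model all include 0.

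**Figure D3:**
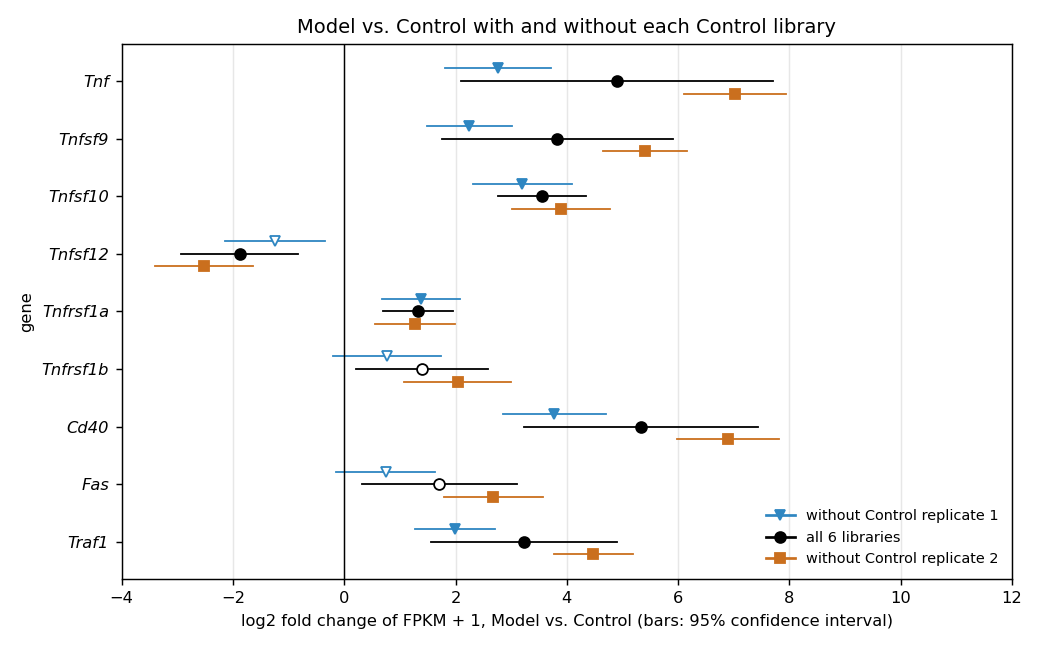
Log2 fold change of FPKM + 1 in Model vs. Control (x axis) of the 9 members, with all 6 libraries, without Control replicate 1 and without Control replicate 2. Bars are 95% confidence intervals and filled points passed both thresholds. For Tnf the value moves between 2.77 and 7.02, and for Tnfrsf1a between 1.27 and 1.38.

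MUS vs. Model asks what muscone changed in stimulated cells. None of the members was called, and the background was the same, as 0% of the 9794 genes were called in that comparison (limma, smallest adjusted p = 0.139). Voom on the recovered fragments gave 0 calls as well. Before adjustment, 825 genes (8.42%) and 0 of the 9 members had a p under 0.05. The log2 fold change was below 0 for 8 of the 9 members, Tnfsf10 being the exception, with a median of -0.42 against 0.01 for all genes. Both MUS libraries were below both Model libraries for 6 members, Tnf, Tnfsf9, Tnfsf12, Tnfrsf1a, Cd40 and Traf1, and 21% of all genes showed the same. Without Model replicate 1, MUS vs. Model gave -0.61 for Tnf, -1.75 for Tnfsf9, -0.76 for Tnfsf12, -0.42 for Tnfrsf1a, -0.09 for Cd40 and -0.62 for Traf1, so the Cd40 difference came close to 0. It was then -0.47 for Tnfrsf1b, -0.13 for Tnfsf10 and 0.04 for Fas, the signs of Tnfsf10 and Fas being turned, and again 0 members were called. The spread that enters this test includes that of the Control libraries. Leaving out either Control library brought 4 members, Tnf, Tnfsf9, Tnfsf12 and Traf1, to an unadjusted p under 0.05 and none to an adjusted p of 0.05, while 9.03% and 9.09% of all genes had such an unadjusted p without Control replicate 1 and without Control replicate 2. With the replicate number as a block, 4 genes were called (0.0408%), and no member was among them. The values of MUS vs. Model and of Model vs. Control share the Model libraries, so for Tnf the pair -0.88 and 4.89, and for Tnfsf9 the pair -1.88 and 3.83, are not independent.

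MUS vs. Control gave 4 members called higher, Cd40, Tnf, Tnfsf10 and Traf1, and Tnfsf12 called lower (limma). The background was 11.3% higher and 8.91% lower. Without Control replicate 2, 7 members were called higher and 1 lower, against 13.8% and 10.7% of all genes, and without Control replicate 1 it was 4 and 1, against 6.89% and 4.16%. Without Control replicate 1 and without Control replicate 2 the log2 fold change was 1.88 and 6.14 for Tnf, 3.36 and 6.47 for Cd40, 3.44 and 4.14 for Tnfsf10, 1.40 and 3.89 for Traf1, and -2.27 and -3.55 for Tnfsf12. The call of Tnf, with an adjusted p of 0.0486, was lost under 13 of the 18 alternatives and that of Traf1 under 9, among them the fits without either Model library and without either MUS library. Cd40 was called under 15 and Tnfsf12 under 16 of them.

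The rest of the family was described from lists of 13 other ligands and 24 other receptors. Only 2 of the ligands averaged at least 1 FPKM, Tnfsf15 and Tnfsf4, and both passed through Model and MUS. Tnfsf15 encodes TL1A, the ligand of DR3, and had 0.118 and 1.61 FPKM in Control, 17.0 and 85.8 FPKM in Model, and 101 and 66.0 FPKM in MUS. The Model libraries differed by a wide margin, and MUS lay within the upper part of their range and above it. It rose by 4.54 on the log2 scale from Control to Model and by 5.60 from Control to MUS (limma adjusted p = 0.00955 and 0.00422). The rise to Model was 5.67 without Model replicate 1 and 3.40 without Model replicate 2, and neither rise was called when all genes with a fragment were tested (limma adjusted p = 0.0937 and 0.0534). Tnfsf4, which encodes OX40L, a costimulatory ligand of T cells, was listed at 0 and 0.308 FPKM in Control, 8.12 and 5.78 FPKM in Model, and 6.57 and 6.15 FPKM in MUS. Its rise over Control was 2.78 in Model and 2.69 in MUS on the log2(FPKM + 1) scale (limma adjusted p = 0.00157 and 0.00144). MUS vs. Model gave 1.06 for Tnfsf15 and -0.10 for Tnfsf4 (limma adjusted p = 0.757 and 0.953), and without Model replicate 1 both signs turned, to -0.07 and 0.12.

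**Figure D4:**
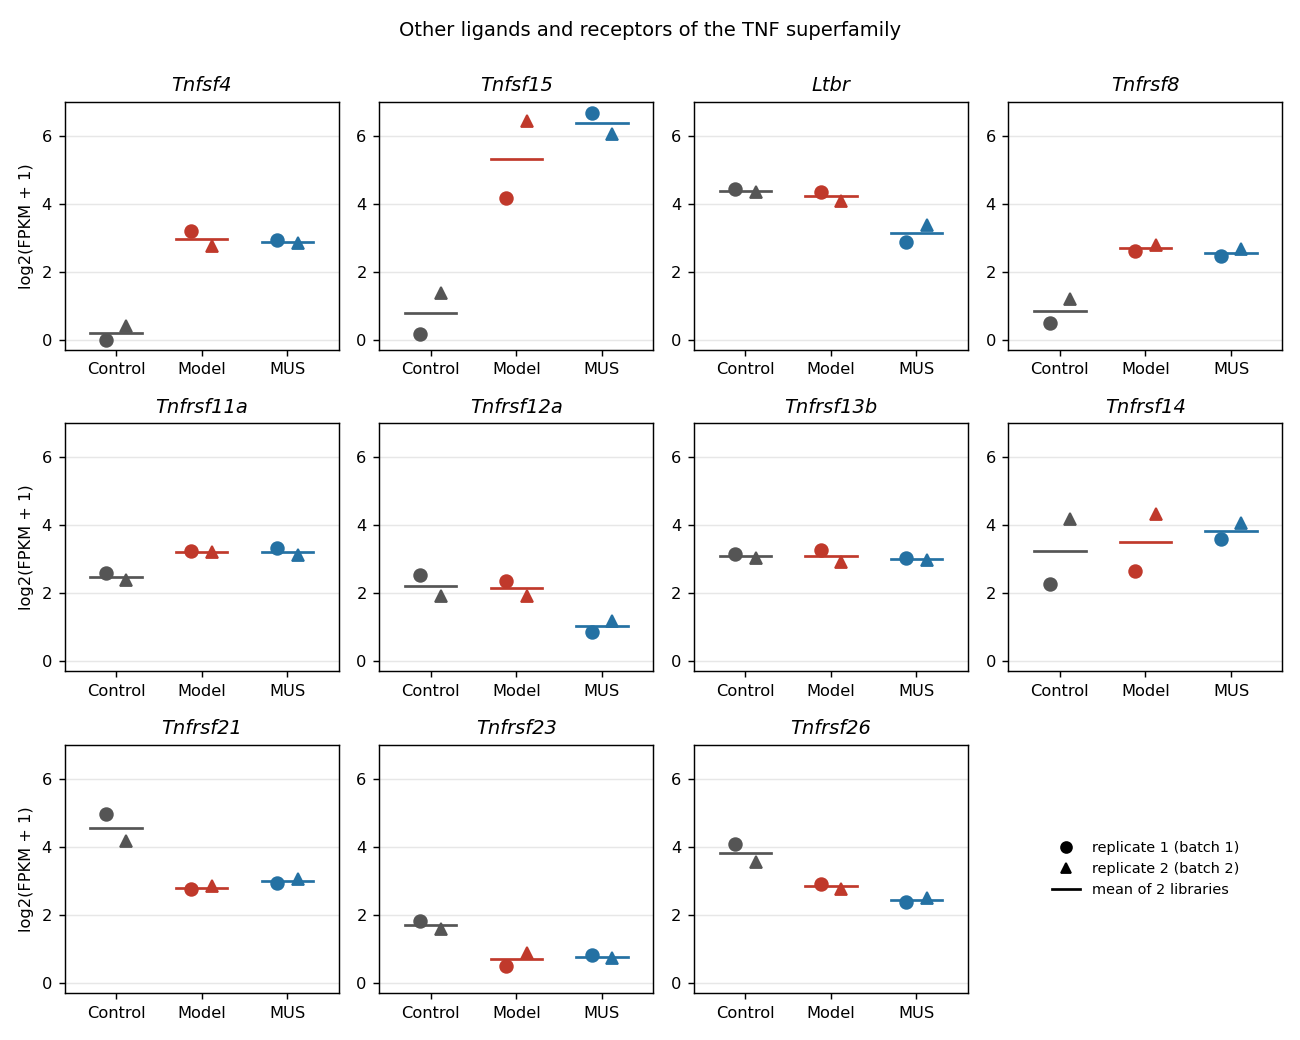
Level, as log2(FPKM + 1), of the 2 other ligands and 9 other receptors of the family averaging at least 1 FPKM, by group. Points are single libraries (circles replicate 1, triangles replicate 2) and lines are means of 2 libraries. Tnfsf15 and Tnfsf4 were low in Control and higher in Model and MUS, Tnfrsf21 was higher in Control, and Ltbr was lower in MUS than in the other groups.

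Of the 24 other receptors, 9 were tested. In Model vs. Control, Tnfrsf8 rose and Tnfrsf21 and Tnfrsf23 fell, and in MUS vs. Control Tnfrsf8 rose and Tnfrsf21, Tnfrsf26, Ltbr and Tnfrsf12a fell (limma). Tnfrsf8, which encodes CD30, was at 0.417 and 1.29 FPKM in Control, 5.12 and 5.91 FPKM in Model, and 4.51 and 5.34 FPKM in MUS, with a log2 fold change of 1.85 in Model vs. Control (limma adjusted p = 0.00702). Tnfrsf21, the death receptor DR6, had 30.3 and 17.0 FPKM in Control against 5.76 and 6.14 FPKM in Model and 6.62 and 7.36 FPKM in MUS, and fell by 1.77 in Model vs. Control (limma adjusted p = 0.0109). Both stimulated groups were thus well below Control for DR6 and above it for CD30, and both calls held without either Control library. The Model vs. Control call of Tnfrsf21 was lost without Model replicate 1 (limma adjusted p = 0.0607), and with all genes with a fragment tested those of Tnfrsf21 and Tnfrsf8 were both lost (limma adjusted p = 0.0784 and 0.0686). Tnfrsf8 passed the filter on a mean FPKM of at least 1 through Model and MUS. Tnfrsf23, a decoy receptor of TRAIL in the mouse, passed the filter through Control, with mean levels of 2.26 FPKM in Control, 0.629 in Model and 0.702 in MUS. It fell by 1.01 in Model vs. Control (limma adjusted p = 0.0331), but 18.0% of its 50-base stretches also occur in Tnfrsf22, so its level is uncertain, and it was not called without Control replicate 1. Tnfrsf26 had 16.0 and 10.8 FPKM in Control, 6.50 and 5.82 FPKM in Model, and 4.15 and 4.63 FPKM in MUS. Its log2 fold change was -1.39 in MUS vs. Control (limma adjusted p = 0.00967). In Model vs. Control it was -0.99, just short of the threshold of 1 (limma adjusted p = 0.0364). With all genes with a fragment tested, the MUS vs. Control call was lost (limma adjusted p = 0.0604).

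Ltbr, the lymphotoxin beta receptor, had 20.4 and 19.3 FPKM in Control, 19.5 and 15.8 FPKM in Model, and 6.35 and 9.44 FPKM in MUS. It was lower in both MUS libraries than in the 4 others, and it fell by 1.25 in MUS vs. Control (limma adjusted p = 0.0179). In MUS vs. Model the log2 fold change was -1.08 with an unadjusted p of 0.00486 and an adjusted p of 0.381 (limma). Tnfrsf12a, which encodes FN14, the receptor of the Tnfsf12 product, showed the same order, with 4.78 and 2.76 FPKM in Control, 4.18 and 2.81 FPKM in Model, and 0.822 and 1.27 FPKM in MUS. MUS differed from Control by a log2 fold change of -1.19 (limma adjusted p = 0.0274) and from Model by -1.13 (limma adjusted p = 0.399). Without Model replicate 1, MUS vs. Model was -0.94 for Ltbr and -0.90 for Tnfrsf12a. After a correction for transcript GC content, neither was called in MUS vs. Control, with -0.48 for Ltbr and -0.64 for Tnfrsf12a. Neither was called there without Control replicate 1 or with all genes with a fragment tested. Tnfrsf14 was higher in replicate 2 of each group, with 3.86 and 17.3 FPKM in Control, 5.32 and 19.3 FPKM in Model, and 11.1 and 15.8 FPKM in MUS. Tnfrsf11a, which encodes RANK, had 5.04 and 4.24 FPKM in Control, 8.46 and 8.22 FPKM in Model, and 8.98 and 7.75 FPKM in MUS. Its log2 fold change was 0.73 in Model and in MUS against Control, under the threshold of 1 (limma adjusted p = 0.0560 and 0.0453). With fragment-total scaling these were 0.26 and 0.27. Tnfrsf13b, which encodes the BAFF receptor TACI, was at 6.62 to 8.69 FPKM over the 6 libraries. Neither gene was called in any of the 3 comparisons.

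The partners of several members were listed at under 1 FPKM in every library. Cd40lg, the ligand of CD40, was at 0.0493 FPKM in MUS replicate 2 and listed at 0 in all other libraries. Fasl, the ligand of FAS, was at 0 in both Control and both MUS libraries and at 0.110 and 0.0666 FPKM in Model. Tnfrsf9, the receptor of the Tnfsf9 product, had 0.0161 and 0.0321 FPKM in Control, 0.911 and 0.332 FPKM in Model, and 0.365 and 0.814 FPKM in MUS. These values are 1, 2, 35, 14, 15 and 36 fragments in that order. Tnfrsf10b, the receptor of TRAIL, was listed at 0.177 to 0.542 FPKM. These genes were under the filter and were not tested in the main fit.

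Genes that act around the receptors were described from lists on receptor-proximal signalling, TNF shedding, TNF mRNA control and the NF-κB response. Of 26 signalling genes, 25 were tested, and in Model vs. Control 6 were called higher and 0 lower (limma), against 9.5% and 5.56% of all genes, with a median log2 fold change of 0.55 against 0.04. They were Tnfaip3 (A20, an inhibitor of NF-κB), with 3.29, Cflar (the caspase-8 inhibitor c-FLIP), with 2.49, Tnip1, with 2.14, Casp8, with 1.53, and Rnf31 and Tab2. Without Control replicate 1 there were 3, against 5.45% of all genes, and without Control replicate 2 there were 10, against 12.6%. Within batch 1 and batch 2, the Model vs. Control log2 differences were 4.16 and 2.41 for Tnfaip3 and 3.16 and 1.81 for Cflar. They were 2.92 and 1.35 for Tnip1 and 1.25 and 1.81 for Casp8. In MUS vs. Control 8 signalling genes were called higher and 1, Tradd, lower, against 11.3% and 8.91% of all genes. Birc3 (cIAP2) was among them with 2.06, and without Control replicate 1 the counts were 3 and 0, against 6.89% and 4.16%.

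Of 4 shedding genes, 3 were tested. Rhbdf2, which encodes iRhom2, the partner of the protease that releases TNF, rose by 1.75 in Model vs. Control (limma adjusted p = 0.0396) but was not called without Control replicate 1, and no shedding gene was called in MUS vs. Control with all 6 libraries. All 8 genes of TNF mRNA control were tested, and 3 rose and 1 fell in Model vs. Control (limma), again beside 9.5% and 5.56% of all genes. Zc3h12a (Regnase-1), with 2.57, and Zfp36 (tristetraprolin), with 2.35, both encode proteins that bring about decay of Tnf mRNA. Elavl1 (HuR), with 1.06, encodes a stabilizing protein, and its change was under the threshold of 1 without Control replicate 1. Zfp36l2 fell by 1.81 there and by 2.38 in MUS vs. Control. Of the 18 NF-κB response genes, 13 rose in Model over Control, and Il6 and Csf2 among the 18 passed the filter through Model and MUS. The list had a median log2 fold change of 3.17 and was led by Il6 (8.82), Cxcl10 (8.47), Ptgs2 (8.13) and Ccl2 (6.37). Without Control replicate 2 the count was 18, and without Control replicate 1 it was 12, against 12.6% and 5.45% of all genes. In MUS vs. Control 13 rose as well, against 11.3% of all genes. In MUS vs. Model 0 genes of these lists were called (limma), and at an unadjusted p under 0.05 there was 1 signalling gene. The median of the NF-κB response genes was then -0.25, with 15 of 18 below 0 and 0 at an unadjusted p under 0.05, and without Model replicate 1 it was -0.13, with 9 of 18 below 0.

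The genes whose level followed a member most closely over the 6 libraries were sought by Pearson's r of log2(FPKM + 1) among 9785 other genes, as a description, since the libraries fall into stimulated and Control samples. For Tnf these were Cxcl1 (r = 0.999), Ccl5 (0.998) and Ak4 (0.998), and 328 genes had an r over 0.95. Cxcl1, a neutrophil-attracting chemokine, had 2.38 and 61.2 FPKM in Control, 629 and 412 FPKM in Model, and 275 and 266 FPKM in MUS, which is the same order as for Tnf. For Tnfsf9 they were Mtmr14 (0.995), Gm8394 (0.993) and Cdkn1a (0.989), with only 75 genes over 0.95. Cdkn1a, the cell cycle inhibitor p21, had 17.7 and 48.7 FPKM in Control, 147 and 114 FPKM in Model, and 67.3 and 77.6 FPKM in MUS. Tnfrsf1b was followed by Src (0.996), Slamf8 (0.993) and Nod2 (0.989), with 111 genes over 0.95. Cd40 was followed by Tnip1, Tdg and Ccdc86 (0.999) and had 674 genes over 0.95. For Fas they were Hspa13 (0.998), Nampt (0.997) and Mtpn (0.996), and for Traf1 Tmem183a (0.998), Abtb2 (0.998) and Nfkbia (0.998). Between members, r was 0.994 for Tnf and Traf1, 0.981 for Tnfrsf1b and Traf1, and -0.938 for Tnfsf10 and Tnfsf12.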

How the data were processed

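The authors deposited one table of FPKM per gene and library, which their methods attribute to RSEM. The submitters' processing notes name HISAT2, featureCounts 1.5.0-p3 and GRCm39 without their roles, whereas 98.3% of the 54495 gene identifiers shared with GENCODE M21 have the GRCm38 start and end, so positions are given on GRCm38. The authors called DEGs with DESeq2 1.20.0. No column of per-library values was without a sample (0 columns).

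Multiplied by gene length, 100% of the FPKM in a library were whole multiples of a single step, within 0.1 of it, so fragments were recovered. Control libraries held 15742538 and 17135442 fragments on genes, Model libraries 15529580 and 15526321, and MUS libraries 16222724 and 16481372. For a 1 kb gene, the limit of 3 fragments that a count of 0 allows is 0.131 to 0.213 FPKM, for counting error only. The library size behind the deposited FPKM was 1.45 and 1.34 times these fragments for the Control libraries and 0.909 to 0.998 times for the others, which was not corrected except in alternatives.

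limma 3.58.1 in R 4.3.3 (lmFit, contrasts.fit, eBayes with trend) was fitted to log2(FPKM + 1) for 9794 genes averaging at least 1 FPKM, with 3 groups and all 6 libraries in the same model. Adding 1 makes the fold change of low genes smaller. p-values are two-sided and Benjamini-Hochberg adjusted over all genes tested, and a call needed an adjusted p no larger than 0.05 and a log2 fold change beyond 1 in either direction, as in the study. An exact permutation test of 2 libraries against 2 cannot go under p = 0.333. Before use, the limma step was tested on simulated data. Replicate numbers pair the libraries because the labels give them as batches. The replicate differences correlated across genes with r = 0.12 between Control and Model, -0.09 between Control and MUS, and 0.14 between Model and MUS. The replicate block was an alternative. Python 3.11.15, NumPy 2.4.6, pandas 2.3.3 and Matplotlib 3.10.9 were used for tables and figures.

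The members, the gene lists and the tests were chosen with earlier results of these data known. Named are all members, the called genes with the 4 largest changes of each list, every other family gene averaging at least 1 FPKM, and the 3 genes closest to a member, while untested partners of members, Rnf31, Tab2, Tradd, Csf2 and the single cell type markers were named after their values were seen. Strand use in counting is not given in the sources used here.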

Additional observations from a re-analysis of the deposited data

How the results depend on the processing

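Of the 18 alternatives, 2 (a correction for transcript GC content, alone and with the replicate block) were chosen after seeing the data, as were the list counts without a Control library. The direction of all 9 members tested held in Model vs. Control and MUS vs. Control under all 18. In MUS vs. Model, leaving out 1 library turned the sign of Tnfsf10 to -0.13 and of Fas to 0.04 without Model replicate 1, and of Fas to 0.083 without MUS replicate 2, with leave-one-out values of -0.13 to 0.60 for Tnfsf10 and -0.47 to 0.083 for Fas. With all genes above 0 tested, 260 genes were called in Model vs. Control and 456 in MUS vs. Control, with 1 member (Tnfsf10) called higher and 0 lower in each. With 2 groups only, Model vs. Control gave 797 genes, with 2 members higher and 0 lower, and MUS vs. Model gave 7 genes. With a pseudocount of 0.1, MUS vs. Model gave 1 gene. Scaling without mitochondrial and the 20 highest genes gave 2374 genes in Model vs. Control. In MUS vs. Control, 2 members were called higher with a pseudocount of 0.1, with fragment-total scaling, with scaling without mitochondrial and the 20 highest genes, and with 2 groups only, beside 1152, 738, 721 and 1169 of all 9794 genes in that order. With each library left out in turn, genes called lay between 692 and 2077 in Model vs. Control, 0 and 31 in MUS vs. Model, and 184 and 2398 in MUS vs. Control. Members called higher then lay between 1 and 8 and between 1 and 7 in the comparisons with Control, and members called lower between 0 and 1 in both. With the replicate block, MUS vs. Model gave 4 genes, and it changed no other call of a member. The cause of these changes was not tested. Tnfsf13b, with 8 to 40 fragments, is limited by depth.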

Other observations

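Several other family genes stayed under a mean FPKM of 1 across the 6 libraries and were not tested in the main fit. Lta, which encodes lymphotoxin alpha, had 0.0632 and 0.221 FPKM in Control, 1.13 and 0.887 FPKM in Model, and 1.20 and 1.20 FPKM in MUS. Tnfsf11, which encodes RANKL, had 0.0978 and 0.274 FPKM in Control, 0.919 and 0.664 FPKM in Model, and 0.621 and 0.551 FPKM in MUS. Tnfsf13, which encodes APRIL and lies beside Tnfsf12, had 1.71 and 0.694 FPKM in Control, 0.260 and 0.0394 FPKM in Model, and 0.404 and 0.0376 FPKM in MUS. Relt, an orphan receptor of the family, had 0.800 and 1.17 FPKM in Control, 0.864 and 0.905 FPKM in Model, and 0.202 and 0.619 FPKM in MUS. These genes were chosen after their values were seen.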
